A study of Arabidopsis thaliana with 90 samples.

Results

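Of 12251 genomic regions in Arabidopsis seedlings that carried RNA polymerase II (Pol II) phosphorylated at serine 5 of its tail repeat (Ser5P), 3469 overlapped no region with the serine 2 form (Ser2P) by even 1 bp. These 3469 regions, 28.3% of the Ser5P list of the whole series, were selected on the positions of Ser5P and Ser2P peaks and are called members. The other 8782 Ser5P regions overlapped Ser2P, and 1869 Ser2P regions overlapped no Ser5P. Members made up 27.3% to 29.5% of the Ser5P regions on each of the 5 chromosomes. The values of 10 features come from chromatin immunoprecipitation sequencing (ChIP-seq) of whole 9-day-old Col-0 wild-type seedlings. The seedlings grew on MS medium under constant white light. The groups shared this genotype and age, and each of the 10 features had 3 biological replicates. A further list, of the TATA-binding protein TBP, is named for wild type, and no label used here gives its age or growth conditions. WDR5A-HA was precipitated with beads against the HA tag from plants labelled as Col-0, and neither the promoter nor the line that carried the tag is given in the sources used here. The study asked how the DREAM complex and WDR5A act on productive elongation, and only wild-type lists entered the values below.

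The largest subunit of Pol II ends in a long tail of short repeats whose phosphorylation follows the transcription cycle. Serine 5 is phosphorylated by the kinase of the general factor TFIIH around initiation and promoter escape, and serine 2 is phosphorylated later by elongation kinases. Ser5P is therefore typical of Pol II at the start of genes, and Ser2P of Pol II in gene bodies and toward the 3′ end. WDR5A is a core subunit of the COMPASS-like complexes that methylate lysine 4 of histone H3 (H3K4). H3K4me3 and the histone variant H2A.Z mark the first nucleosomes of genes, and H3K4me1 lies along gene bodies.

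The values that chose the members are a description. Members were short, with a median length of 470 bp and quartiles of 372 and 613 bp, against a median of 827 bp for Ser5P regions with Ser2P. Their median Ser5P fold, which is the peak caller's enrichment of the highest-scoring peak in the region, was 2.83, 2.80 and 2.85 in replicates 1, 2 and 3. The same medians were 3.35, 3.38 and 3.41 at the regions with Ser2P. A Ser5P peak was present in all 3 libraries at 2279 members and in 2 libraries at 1190, and replicate 1 covered 76.4% of members against 94.1% and 95.2% in replicates 2 and 3. Most members were also free of Ser2P in single libraries. No library had a Ser2P peak at 3169 members, 1 library had one at 291, and 2 libraries had separate ones at 9. The nearest Ser2P region lay a median of 2098 bp away, and 3080 members (88.8%) were at least 500 bp from any. Just inside the rule, 20 members lay under 50 bp from a Ser2P region, with a median of the mean Ser5P fold of 2.75. Just outside it, 26 regions had under 50 bp of Ser2P overlap, with a median of 2.39.

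Most members had no peak of total Pol II, precipitated with an antibody to Pol II whatever its phosphorylation. A total Pol II peak was found at 25.02%, 31.1% and 33.1% of members in replicates 1, 2 and 3. At Ser5P regions with Ser2P these shares were 92.3%, 94.2% and 94.2%. Those regions were chosen for a second form of Pol II, which total Pol II includes, so this contrast is not independent of the rule. The groups did not overlap in any library, and the mean share was 29.7% ± 4.21 against 93.6% ± 1.07 (SD, n = 3). A total Pol II peak in all 3 libraries was present at 725 members, 20.9%, where 69.8% of all Ser5P regions had one. At 2132 members, 61.5%, no library had any. Whole seedlings mix many cell types, so peaks of several features at a region may come from different cells, which cannot be told apart here. Where a peak was present its median fold was 2.69 ± 0.0891 at members and 3.94 ± 0.0487 at the other regions (SD, n = 3), lower at members in 3 of 3 libraries. That difference, −1.25, was −0.45 within strata of region length and −0.72 within strata of Ser5P score rank. The nearest total Pol II summit lay 2471, 2107 and 1990 bp from the Ser5P summit of the median member, against 59, 60 and 59 bp at the other regions. For each of the 8 features with replicates the exact paired permutation test of the difference in share, two-sided over 3 libraries, gave p = 0.25, which is the smallest it can give, and 0.25 after Benjamini-Hochberg adjustment over the 8. The 4 median folds compared gave the same exact p of 0.25, also after adjustment over the 4. The design therefore cannot reach 0.05 for any of them, and the spread between libraries is given in its place.

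**Figure D1:**
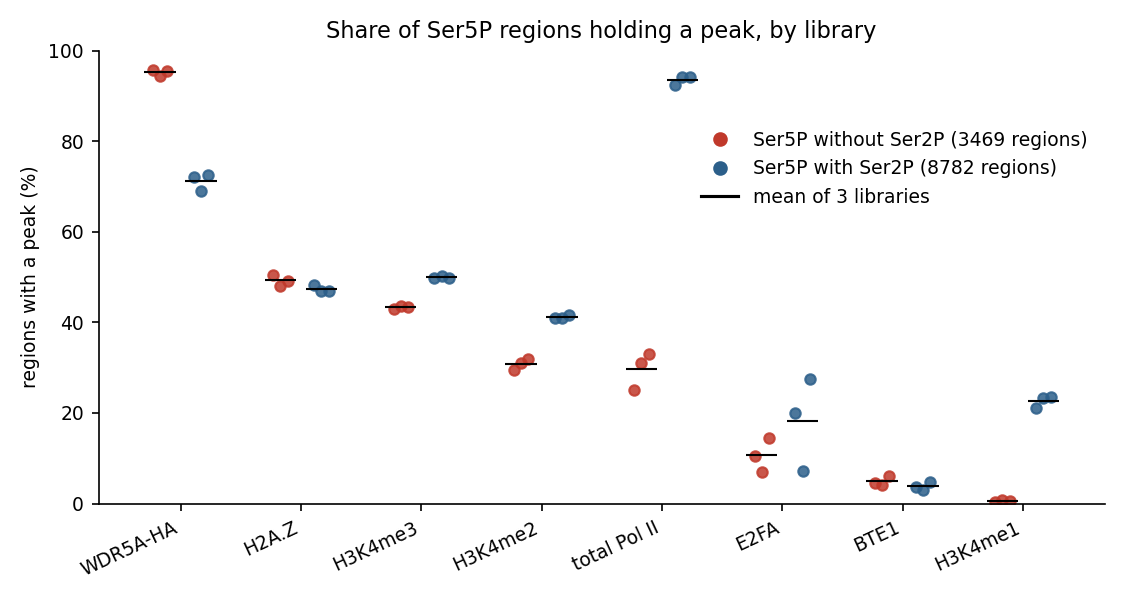
Share of Ser5P regions, in percent, that hold a peak of each feature, for regions without Ser2P (red) and with Ser2P (blue). Each point is 1 library and each bar the mean of 3. Members stand near 95.3% for WDR5A-HA and 29.7% for total Pol II, where the other regions stand near 71.3% and 93.6%.

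WDR5A-HA was found at almost every member. Its peaks covered 95.8%, 94.5% and 95.6% of members in replicates 1, 2 and 3, against 72.2%, 69.1% and 72.6% of Ser5P regions with Ser2P. All member values lay above all values of the other class, by 24.0 ± 1.26 percentage points (SD, n = 3). Of the members, 3224 had a WDR5A-HA peak in all 3 libraries, 92.9%, where 72% of all Ser5P regions did, and 93 members had none in any library. The median WDR5A-HA fold was 3.14 ± 0.0411 at members and 2.63 ± 0.0201 at the other regions (SD, n = 3), higher at members in 3 of 3 libraries. The difference in share was larger within strata of region length, at 48.2 percentage points, and of Ser5P score rank, at 39.4. It was smaller, at 5.69 percentage points, among regions whose summit lay near a 5′ end, a restriction described below. Ser2P regions without Ser5P carried WDR5A-HA at 11.8% ± 2.11 (SD, n = 3).

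The summits of the 2 proteins also lay close together. The median distance from the Ser5P summit of a member to the nearest WDR5A-HA summit was 42, 40 and 44 bp in the 3 libraries. At the other Ser5P regions it was 144.5, 167 and 145 bp. A WDR5A-HA summit lay within 100 bp of the Ser5P summit at 74.9% to 76.0% of members and at 41.4% to 42.5% of the others. Members took up 18.3% to 19.6% of all WDR5A-HA peaks, while 40.2% to 42.3% lay at Ser5P regions with Ser2P and 38.2% to 41.5% at no Ser5P region. The TATA-binding protein TBP, which places Pol II at promoters, had a single list of regions without replicates. TBP regions overlapped 2998 members, 86.4%, and 84.4% of the other regions, where 85% of all Ser5P regions had one. The median distance from the Ser5P summit to the centre of the nearest TBP region was 59 bp at members and 113 bp at the others.

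**Figure D2:**
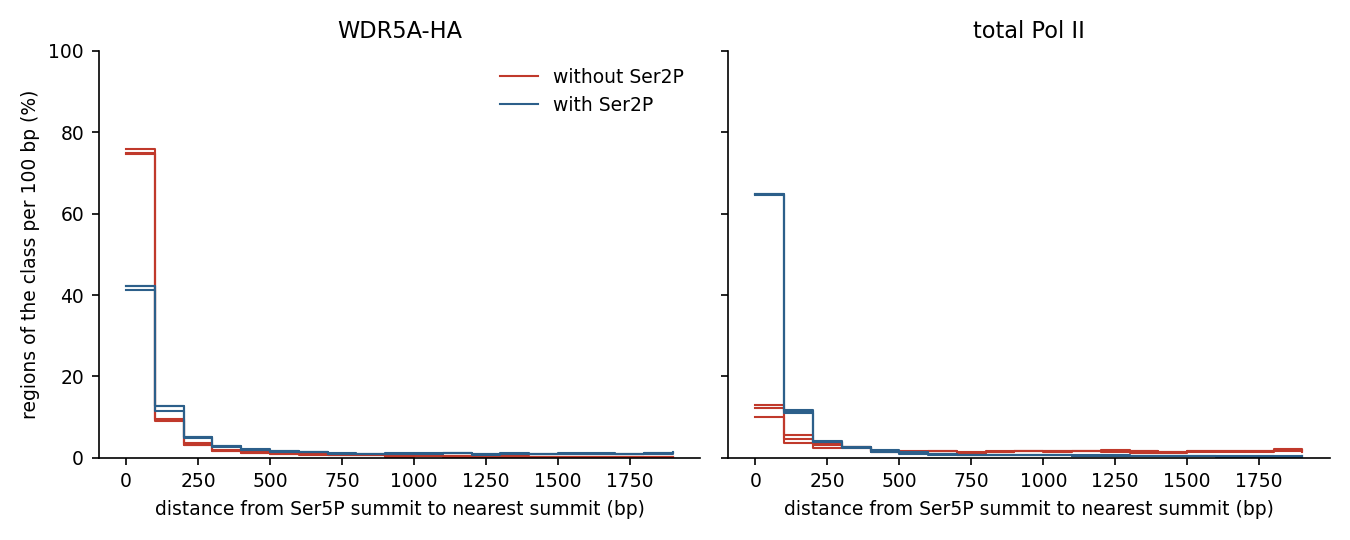
Distance from the Ser5P summit to the nearest summit of WDR5A-HA (left) and total Pol II (right), in bp, as percent of the regions of a class per 100 bp, with 1 line per library. In the first 100 bp, members (red) reach 74.7% to 75.8% for WDR5A-HA and 10.1% to 12.97% for total Pol II, and the regions with Ser2P (blue) reach 41.1% to 42.3% and 64.7% to 64.9%.

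Across members that had both peaks, the Ser5P fold went with that of WDR5A-HA and hardly with that of total Pol II. Over 2575, 3099 and 3160 members with both peaks, Spearman's rho between the Ser5P fold and the WDR5A-HA fold of the same replicate number was 0.62, 0.66 and 0.62. With total Pol II it was 0.09, 0.07 and 0.07 over 721, 1024 and 1100 members. The many members without a total Pol II peak do not enter these values. At Ser5P regions with Ser2P the order was the other way, with 0.72, 0.70 and 0.70 for total Pol II and 0.48, 0.50 and 0.50 for WDR5A-HA. The points of a correlation are regions of 1 pair of libraries and share their depth and the peak caller's background, so these values describe the lists. With H2A.Z the values at members were −0.19, −0.17 and −0.15. Among the 868 members with the highest Ser5P score rank, 99.3% ± 0.0665 had WDR5A-HA and 97.0% had TBP, while 41.6% lay in protein-coding genes. Among the 867 with the lowest, 88.4% ± 1.73 had WDR5A-HA (SD, n = 3), 71.3% had TBP and 74.7% lay in genes.

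**Figure D3:**
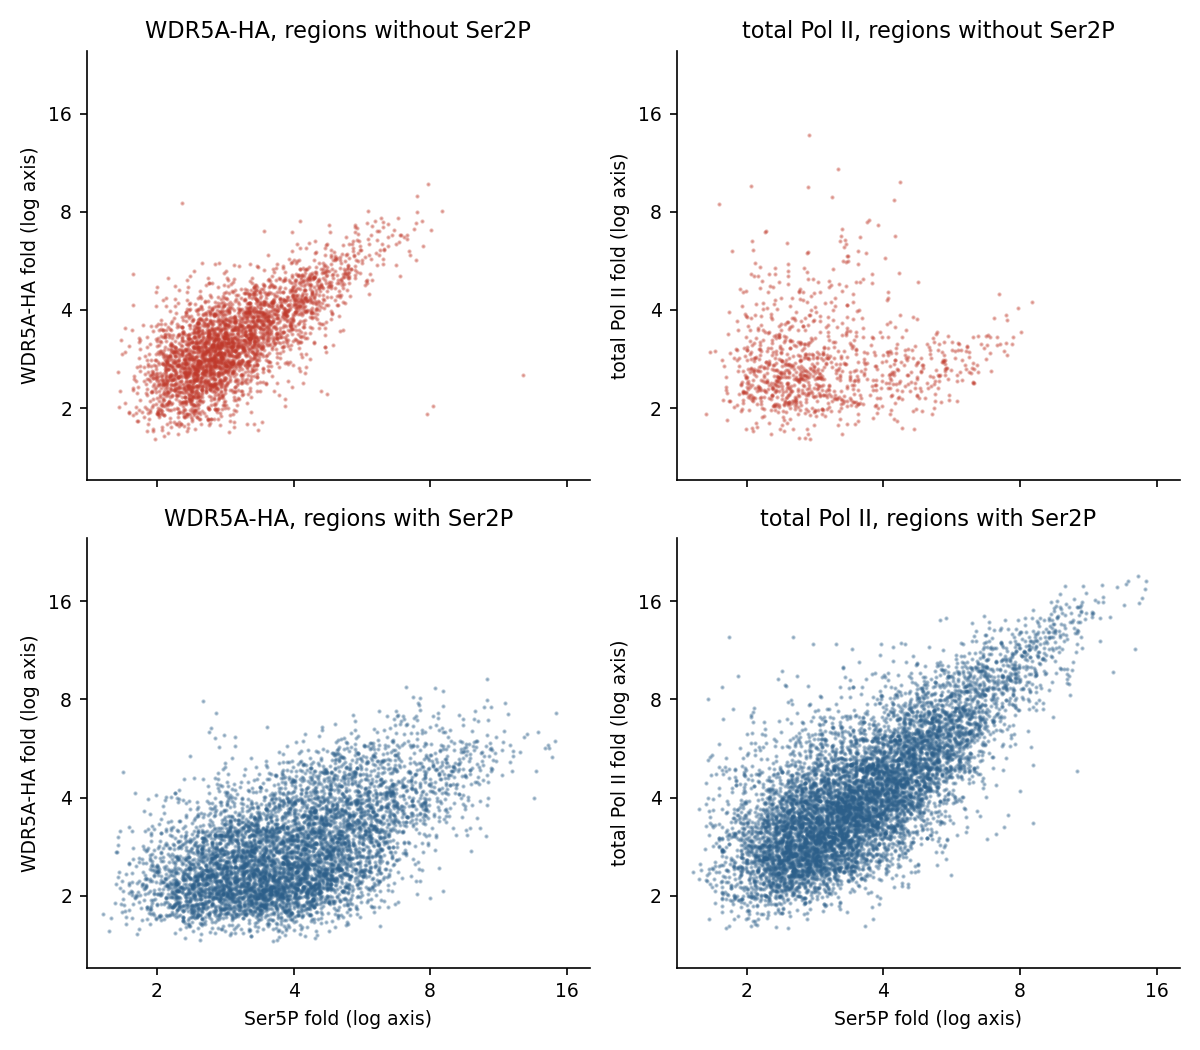
Fold enrichment of WDR5A-HA (left) and total Pol II (right) against that of Ser5P in replicate 2, on log axes, for Ser5P regions without Ser2P (top, red) and with Ser2P (bottom, blue). Each point is a region with both peaks. At members Spearman's rho was 0.66 for WDR5A-HA and 0.07 for total Pol II, and at regions with Ser2P it was 0.50 and 0.70.

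Of the H3K4 marks, H3K4me1 was almost absent from members. It covered 0.432%, 0.692% and 0.577% of members in replicates 1, 2 and 3, against 21.0%, 23.2% and 23.4% of Ser5P regions with Ser2P. All 3 values of members lay far below those of the other class. Only 10 members had it in all 3 libraries, 0.288%, where 12.1% of all Ser5P regions did. No H3K4me1 summit came within 100 bp of a member's Ser5P summit in any of the 3 libraries, and 0.353% to 0.399% of the other regions had one so near. Within strata of region length the other regions had H3K4me1 at 7.43%, and within 200 bp of the Ser5P summit at 2.70%, so part of the distance between the classes moved with region size.

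For H3K4me3 and H2A.Z, which class stood higher and by how much depended on what was compared. H3K4me3 covered 42.9%, 43.7% and 43.5% of members, against 49.7%, 50.3% and 49.9% of the other regions, lower in 3 of 3 libraries. All 3 libraries had H3K4me3 at 1456 members, 42%, and the share over all Ser5P regions was 46.9%. Within strata of region length the order turned, to 43.4% of members and 30.1% of the others, and among regions that touch protein-coding genes it was 72.4% and 50.1%. H2A.Z covered 50.5%, 48.1% and 49.2% of members and 48.2%, 47.0% and 47.0% of the others, higher at members in 3 of 3 libraries by 1.90 ± 0.670 percentage points (SD, n = 3), with ranges that overlapped slightly. It was present in all 3 libraries at 1548 members, 44.6%, close to the 44.2% of all Ser5P regions. Among regions in protein-coding genes H2A.Z stood at 73.0% of members and 47.6% of the others, within strata of region length at 49.3% and 32.1%, and in 200 bp around the Ser5P summit at 32.5% and 19.8%. The difference was 0.115 percentage points for members at least 500 bp from Ser2P. Among regions with Ser5P in all 3 libraries H2A.Z stood lower at members, at 48.9% against 50.3%. H3K4me2 covered 30.8% ± 1.201 of members and 41.2% ± 0.327 of the others (SD, n = 3), and it turned to 30.8% and 21.8% within strata of region length. It was called in all 3 libraries at 889 members, 25.6%, where 32.5% of all Ser5P regions had it. The median H3K4me3 fold was 7.31 ± 0.364 at members and 7.40 ± 0.365 at the others (SD, n = 3). Within libraries the difference was −0.0949 ± 0.00895, lower at members in 3 of 3 libraries (exact paired permutation p = 0.25, the smallest possible), and smaller than the spread of either class over libraries.

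Of the factors of cell-cycle gene control, BTE1 peaks were rare in both classes of Ser5P regions, and E2FA peaks were more common in both. E2FA peaks reach a p-value of 0.01 and BTE1 peaks a q-value of 0.05. The E2FA lists are thus the more lenient, and the shares of the 2 factors do not compare their binding. BTE1, which the study places in the DREAM complex, had a peak at 4.64%, 4.04% and 5.97% of members, against 3.70%, 2.99% and 4.70% of the other regions. The member value was the higher in each library, while the ranges of the classes overlapped. The mean difference of 1.08 percentage points ranged from 0.284 with Ser5P in all 3 libraries to 3.28 among regions in genes. BTE1 was present in all 3 libraries at 104 members, 3%, where 2.38% of all Ser5P regions had it. E2FA, a transcription factor of the S phase programme, had peaks at 10.6%, 7.00% and 14.4% of members, against 20.0%, 7.16% and 27.5% of the others. The difference was −9.41, −0.157 and −13.2 percentage points in replicates 1, 2 and 3, so the classes were nearly equal in replicate 2, and its mean was −7.58. With replicate 2 of Ser5P, Ser2P and E2FA all left out, which also changed the members to 2946, it was −13.5. E2FA was called in all 3 libraries at 192 members, 5.53%, where 4.55% of all Ser5P regions were. The share of the other regions was 4.16%, so by this count members stood higher, unlike in the mean share.

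Members lay in another place than the rest of the Ser5P regions. Of the 3469 members, 2016 (58.1%) overlapped a protein-coding gene, against 98.6% of Ser5P regions with Ser2P. A further 441 (12.7%) lay 1 to 500 bp from the nearest gene, 378 (10.9%) lay over 500 and up to 1000 bp away, and 634 (18.3%) lay over 1000 bp away, where 0.410% of the other regions were found. The Ser5P summit itself was inside a gene at 34.4% of members and 67.2% of the others. The 2016 members in genes carried H3K4me3 at 72.4% ± 0.633, H2A.Z at 73.0% ± 0.947 and total Pol II at 44.5% ± 5.61 (SD, n = 3). The 1453 members outside genes carried H3K4me3 at 3.05% ± 0.0795, H2A.Z at 16.4% ± 1.61 and total Pol II at 9.31% ± 2.28. WDR5A-HA did not follow this split and was found at 93.2% ± 1.02 inside and 98.2% ± 0.278 outside genes (SD, n = 3). TBP regions overlapped 84.0% and 89.8% of them. Of the members outside genes, 1252 had no total Pol II peak in any library.

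**Figure D4:**
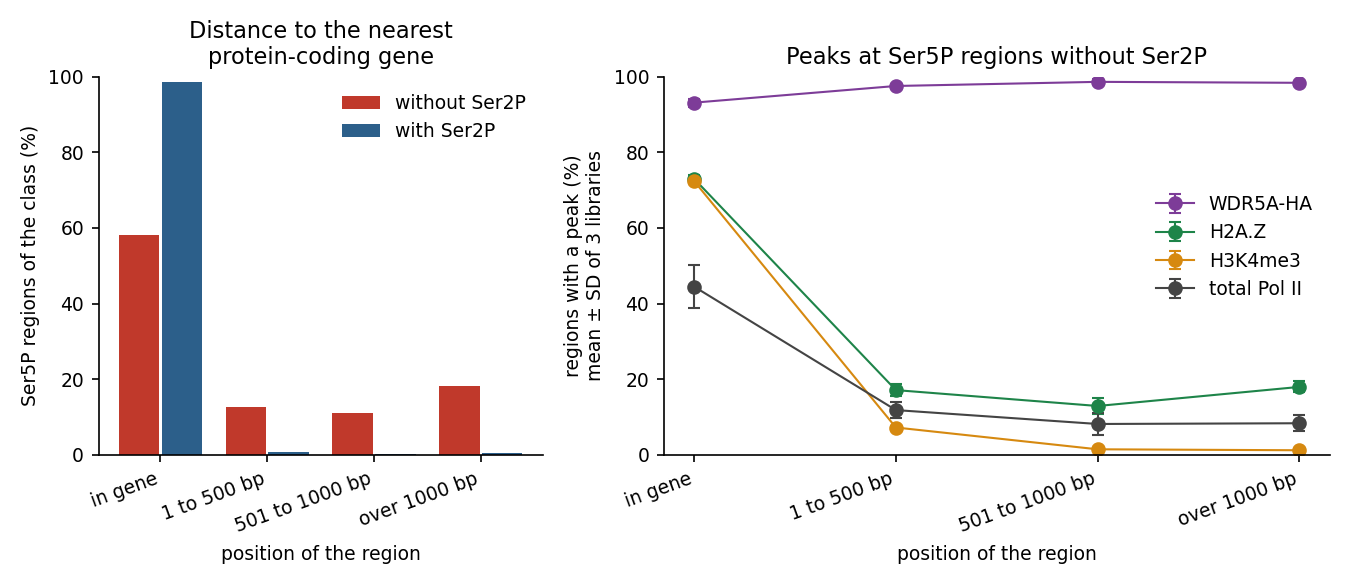
Left, percent of Ser5P regions without (red) and with Ser2P (blue) by position relative to the nearest protein-coding gene. Right, percent of members with a peak of 4 features at each position, as mean ± SD of 3 libraries. WDR5A-HA stays between 93.2% and 98.7%, while H3K4me3 goes from 72.4% in genes to 1.16% over 1000 bp away.

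Total Pol II at members went with genes and H3K4me3. The 725 members with total Pol II in all 3 libraries had a median length of 613 bp, overlapped a gene at 89.2% and carried H3K4me3 at 76.0% ± 0.694 (SD, n = 3). The 2132 members without it had a median length of 416 bp, overlapped a gene at 41.3% and carried H3K4me3 at 27.1% ± 0.358. WDR5A-HA stood at 90.9% ± 0.730 of the former and 97.0% ± 0.529 of the latter (SD, n = 3). Region length differed between these sets, and its part in the shares was not tested.

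The gene table used here gives no strand, so genes were oriented by where their highest H3K4me3 summit lay, which gave a direction to 13554 protein-coding genes. Within 500 bp of an oriented 5′ end lay 38.5% of member summits and 23.3% of those of the other Ser5P regions. Of the members, 21.0% lay on the outer, promoter side and 17.5% on the inner side, and the fullest 100 bp was the one just outside the gene, with 8.39%. Within 500 bp of an oriented 3′ end the order was the opposite, with 10.9% of members and 71.9% of the others. The classes were chosen on Ser2P, which is typical of Pol II toward the 3′ end. Their positions along genes are therefore not independent of the rule. Genes oriented by H2A.Z, 16678 of them, gave 39.5% and 24.9% at the 5′ end and 12.5% and 67.6% at the 3′ end. Near oriented 5′ ends alone, the classes still differed in total Pol II, at 39.5% of members and 94.7% of the others, and WDR5A-HA was close, at 96.8% and 91.1%. This restriction was chosen after the data were seen.

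**Figure D5:**
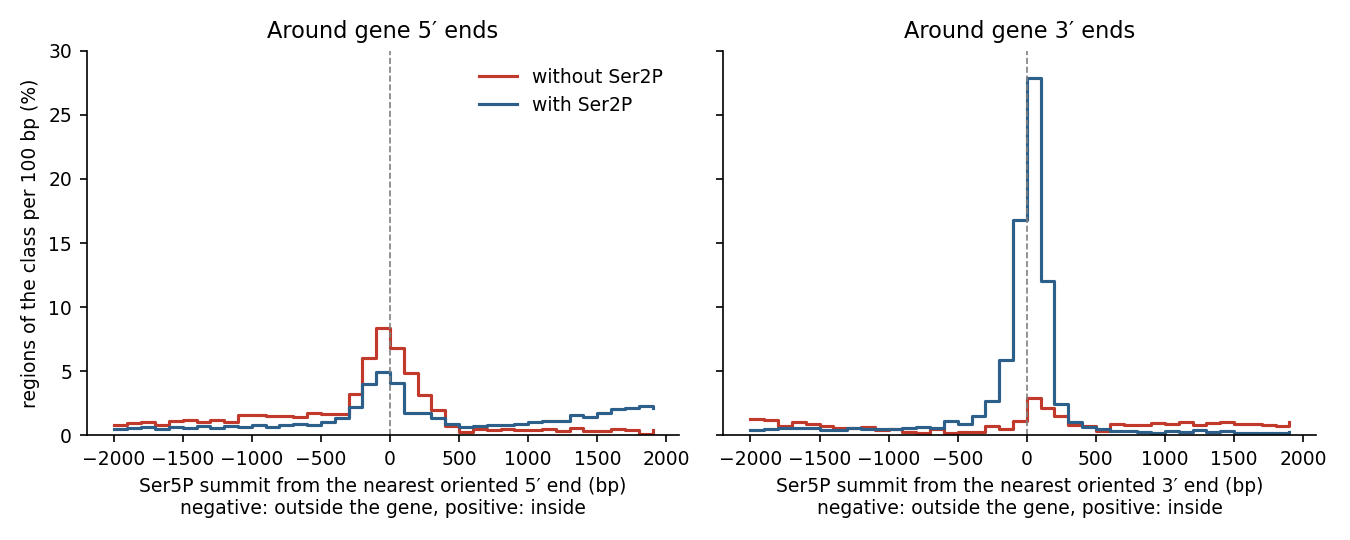
Position of the Ser5P summit from the nearest 5′ end (left) and 3′ end (right) of genes oriented by H3K4me3, in bp, negative outside the gene, as percent of the regions of a class per 100 bp. Members (red) peak at the 5′ end with 8.39% in 1 bin, and regions with Ser2P (blue) peak at the 3′ end with 27.9%. The classes were chosen on Ser2P, so these positions are not independent of the rule.

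Between genes, divergent gaps held a larger share of members than of bases. Of the 539 members in gaps whose flanking genes were both oriented, 267 (49.5%) lay between divergent genes, where both 5′ ends face the gap. Such gaps were 25.5% of all oriented gaps and 38.9% of their bases. A further 240 (44.5%) lay between tandem genes, which held 51.1% of the bases, and 32 (5.94%) lay between convergent genes. For 914 members at least 1 flanking gene had no direction. Divergent gaps had a median length of 1342.5 bp, against 396.5 bp for tandem and 278.5 bp for convergent gaps. A member counted here lies wholly between genes, and members outside genes had a median length of 432 bp. Many tandem and convergent gaps were thus too short for a median member, though their bases were counted. The part of gap length was not tested. These shares describe the map and were given no test.

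The strongest members fell into 2 kinds. The 10 with the best mean Ser5P score rank were taken among those with Ser5P in all 3 libraries and Ser2P in none. Of these, 4 lay in one stretch of chromosome 3, from 22513139 to 22521764 on TAIR10, which held 6 members, no Ser2P region, no TBP region and no peak of total Pol II or H3K4me3. The highest of all covered AT3G60940 from 22520650 to 22521764, with a Ser5P fold of 11.9, 12.8 and 12.3. H2A.Z had a fold of 4.56, 3.97 and 3.20 there and WDR5A-HA 2.40, 2.53 and 2.11, while the nearest Ser2P region was 28423 bp away. Its neighbour at 22519052 to 22520426, over the pseudogene AT3G60935, had a Ser5P fold of 6.60, 9.51 and 10.4 and no peak of any of the 8 other features. The region at 22516813 to 22517362 over the pseudogenes AT3G60930 and AT3G60935 had 8.70, 9.35 and 10.8, also with no other peak. The region over AT3G60920, from 22513139 to 22513795, had 7.38, 8.13 and 6.76 and a WDR5A-HA fold of about 2, at 1.99, 2.02 and 2.34. In the same part of the chromosome, AT3G61028 was covered from 22582209 to 22583560 with a Ser5P fold of 7.13, 8.19 and 8.07 and no other peak. The stretch was singled out after its values were seen, and without it 3463 members remain.

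The transcribed pseudogene AT1G43997 on chromosome 1 resembled these, with a Ser5P fold of 5.54, 7.89 and 4.91, WDR5A-HA at 1.95, 1.92 and 2.09 and no TBP. The other 4 of the 10 had TBP and WDR5A-HA, like most members, with WDR5A-HA folds above the member median of 3.14. All 4 also had total Pol II in 3 of 3 libraries, which 20.9% of members had, so they were not typical members. Between WRKY22, a transcription factor of the immune response, and AT4G01245, the region from 525066 to 525598 on chromosome 4 had a Ser5P fold of 7.83, 7.94 and 8.86. Its WDR5A-HA fold was 10.3, 9.78 and 11.0, and total Pol II stood at 3.91, 4.05 and 4.71. It lay 816 bp from WRKY22 and 856 bp from the nearest Ser2P region. Between AT3G15200 and ERF4, an ethylene response repressor, the region from 5119445 to 5120331 on chromosome 3 had a Ser5P fold of 6.95, 7.19 and 8.44 and a WDR5A-HA fold of 7.25, 6.06 and 6.66. The region near SHOT1 on chromosome 3, from 22327831 to 22328424, had 7.10, 6.86 and 6.98 for Ser5P and 7.41, 6.78 and 7.65 for WDR5A-HA. None of these 3 carried H3K4me3. The region over AT2G44660 and the long non-coding RNA gene AT2G09535, from 18422786 to 18423846 on chromosome 2, carried it, with a fold of 9.78, 7.71 and 10.7 beside a Ser5P fold of 7.62, 7.11 and 7.74.

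Among the same members, with Ser5P in all 3 libraries and Ser2P in none, the longest covered 3815 bp over ASN1, a dark-induced asparagine synthetase, and AT3G47341. Its Ser5P fold was 3.71, 3.88 and 2.56 and its total Pol II fold was 4.46, 7.29 and 4.52. Folds of different features come from different antibodies and libraries, so their heights do not compare amounts. The next were 2684 bp at AT1G79120, with a Ser5P fold of 5.66, 6.67 and 6.65, and 2238 bp at AT4G37550, with 4.99, 4.99 and 5.32. The highest total Pol II fold stood at the region over AT3G46630 and PCL1, also called LUX, a component of the evening complex of the circadian clock. Total Pol II was 17.8, 6.70 and 17.1 there, lowest in replicate 2. The Ser5P fold was 4.33, 3.55 and 3.91, and a Ser2P region began 164 bp away. The region beside AT1G02660 followed with total Pol II at 8.77, 8.87 and 8.47 and Ser5P at 2.86, 3.08 and 3.34. At GLY3, a glyoxalase gene, total Pol II was 6.39, 9.55 and 7.35 and Ser5P 2.46, 2.72 and 2.84. Both also lay close to Ser2P, at 125 and 374 bp.

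The members with the best BTE1 rank were chosen for it, so their BTE1 values are a description. The first touched PRL, which encodes the replicative helicase subunit MCM7, with STP7 and the tRNA gene AT4G02055 beside it. BTE1 had a fold of 26.99, 23.6 and 22.8 and E2FA of 21.3, 12.6 and 22.7, while Ser5P was absent in replicate 1 and stood at 2.52 and 2.70 in replicates 2 and 3. The second touched both PRL and MSH6, a mismatch repair gene, with BTE1 at 17.5, 20.3 and 15.8 and no total Pol II in any library. At CYCD4;1, a D-type cyclin, BTE1 was 18.1, 14.8 and 14.0, E2FA 16.5, 8.21 and 17.1, WDR5A-HA 3.13, 2.81 and 3.32 and Ser5P 3.35, 2.56 and 3.54, again with no total Pol II.

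A gene was counted as carrying Ser5P alone when a member touched its body and no Ser2P region did. This held for 1019 of 27432 nuclear protein-coding genes, 3.71%, while 11596 (42.3%) carried both forms. A member also touched 1260 genes that had Ser2P elsewhere in the body. A gene counted with Ser5P alone could still have a Ser2P peak in a single library. Among the regions named below, 1 library had one at DEAR2, BBX29, WRKY60, HSP60-2, EXPA5, RFL1, MIR163 and AT5G04345. Ser5P itself was in only 2 libraries at WRKY60, HSP60-2, HSFB4, NAC004 and ARF18. The 1019 genes had a median length of 2182 bp, against 2522 bp for genes with both forms and 2078 bp for all. H2A.Z was present at 94.9% ± 0.340 of them, WDR5A-HA at 89.8% ± 1.67, H3K4me3 at 83.4% ± 1.12, total Pol II at 38.7% ± 6.07 and H3K4me1 at 36.2% ± 2.27 (SD, n = 3). At genes with both forms H2A.Z was at 90.7% ± 0.722, WDR5A-HA at 84.1% ± 2.55, H3K4me3 at 90.7% ± 0.184, total Pol II at 92.8% ± 1.13 and H3K4me1 at 65.3% ± 1.203 (SD, n = 3). H3K4me3, total Pol II and H3K4me1 were thus found at a smaller share of genes with Ser5P alone. Over all protein-coding genes H2A.Z was at 79.1% ± 0.761, WDR5A-HA at 49.7% ± 2.35, H3K4me3 at 59.99% ± 0.418, total Pol II at 45.3% ± 1.405 and H3K4me1 at 41.4% ± 1.48 (SD, n = 3).

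Of the 4 lists of auxin genes, SAUR and GH3 had shares of Ser5P alone above the 3.71% of all protein-coding genes, and Aux/IAA and ARF had shares near it. Of 80 SAUR genes, small auxin-induced genes of cell elongation, 12 (15.0%) carried Ser5P alone and 18 carried both forms. The best-ranked were SAUR20, with a Ser5P fold of 4.87, 4.69 and 5.46 and WDR5A-HA of 5.57, 5.89 and 5.90, and AT4G34800, with 4.26, 4.47 and 5.56 for Ser5P. Of 9 GH3 genes, whose enzymes conjugate auxin to amino acids, 2 did: GH3.3, with a Ser5P fold of 5.73, 7.45 and 5.38, and BRU6, with 4.84, 5.03 and 4.35. WDR5A-HA had a fold of 5.79, 5.69 and 5.43 at GH3.3 and of 4.98, 4.44 and 4.72 at BRU6. Of 32 Aux/IAA repressor genes 1 did (3.12%), IAA19, with a Ser5P fold of 3.96, 4.23 and 4.40 and no total Pol II. Among 25 ARF genes, the auxin response factors, 1 did (4%), ARF18, seen in replicates 2 and 3 only. None of these counts, nor those of the lists below, was given a test. Each list of protein-coding genes holds those whose symbol or synonym matched a family pattern. Such a list can miss family members or catch other genes, so its shares are not those of whole families.

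Lists of transcription factors, many of them of stress responses, were matched by symbol in the same way and set beside the 3.71% of all protein-coding genes. Of 41 ERF, CBF and DREB genes, which act in ethylene, cold and drought responses, 7 (17.1%) carried Ser5P alone. They included DREB1A, a cold-response activator, with a Ser5P fold of 6.11, 6.74 and 6.64, WDR5A-HA of 5.51, 6.37 and 6.54 and total Pol II of 3.16, 3.33 and 3.27. DEAR2 had a region of 2323 bp with a Ser5P fold of 4.98, 5.45 and 4.90 and H3K4me3 of 7.997, 8.32 and 10.1. Of 71 WRKY genes 1 did (1.41%), WRKY60, in a region that also overlapped AT2G25010, and 27 carried both forms. Of 12 JAZ repressors of jasmonate signalling it was JAZ5, in a region that also overlapped UBP1B. That region had a Ser5P fold of 3.96, 4.26 and 3.37 and H3K4me3 of 10.6, 10.6 and 11.0, which cannot be assigned to 1 of the genes. MYB genes gave 7 of 125 (5.60%), with MYB20 and MYB15 ranked best, NAC genes 6 of 99 (6.06%), with NAC049 and NAC004, and BBX genes 1 of 30 (3.33%), BBX29, whose region covered 2694 bp. At MYB15 Ser5P was 4.09, 4.69 and 3.64 and WDR5A-HA 4.14, 3.53 and 4.24, without total Pol II or H3K4me3.

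Of 234 cytochrome P450 genes, 21 (8.97%) carried Ser5P alone, where 3.71% of all protein-coding genes did. BAS1, which inactivates brassinosteroids, had a Ser5P fold of 5.19, 4.77 and 4.53, and CYP71B26 had 4.91, 4.72 and 5.24. At both, WDR5A-HA and total Pol II were present in all 3 libraries. Of 13 ATL genes, which encode RING-type ubiquitin ligases, 3 did, with ATL4 and ATL5 ranked best. The region over ATL5 also overlapped AT3G62695. Of 96 RLP and CRK receptor genes 5 did, led by RLP33 and RLP26. Heat shock genes, alpha-expansins and histone genes had shares near that of all genes. They gave 2 of 48 (4.17%), HSP60-2 and HSFB4, 1 of 23 (4.35%), EXPA5, and 1 of 21 (4.76%), HTR12, which encodes the centromeric H3. HTR12 had a Ser5P fold of 3.16, 2.75 and 3.05 and WDR5A-HA of 3.13, 3.03 and 3.17, with no H3K4me2, H3K4me3, H2A.Z or total Pol II peak in the region.

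Lists of photosynthesis and translation were mostly made of genes with both forms. None of 20 light-harvesting genes and none of 4 Rubisco small subunit genes carried Ser5P alone, and 19 and 4 of them carried both forms. Of 60 genes matched by an RPL or RPS symbol or synonym 50 carried both forms, and 2 (3.33%) carried Ser5P alone, close to the 3.71% of all protein-coding genes. The 2 with Ser5P alone were AT1G77750 and RFL1, of which RFL1 is a disease resistance gene matched by a synonym. The region over RFL1 also overlapped FMO. All 6 photosynthetic marker genes used to check the seedling tissue carried both forms, and 0 of 7 genes of seeds and flowers carried either. No XTH gene, of 33, and no CML gene, of 14, carried Ser5P alone.

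Non-coding genes were counted in the same way. Of 625 tRNA genes, which are transcribed by Pol III, 91 (14.6%) were touched by a member and by no Ser2P region, where the share over all 37887 nuclear genes of the table was 3.77%. AT5G65305 lay in a region of 2231 bp with a Ser5P fold of 4.79, 5.81 and 5.52, and AT5G09975 had 3.73, 5.09 and 4.61. Both carried WDR5A-HA in 3 of 3 libraries. Of 82 snRNA genes 9 (11.0%) did, among them U1.14p, with 3.35, 4.68 and 4.17, and U2.7, with 3.52, 4.24 and 3.54. Total Pol II at U2.7 had a fold of 6.18, 6.77 and 5.995. Long non-coding RNA genes gave 240 of 3480 (6.90%), led by AT5G04345 beside TPR3, with a Ser5P fold of 8.53, 8.49 and 8.80 and WDR5A-HA of 9.04, 8.07 and 8.86. Of 326 miRNA genes 5 did, among them MIR163, and of 287 snoRNA genes 2 did, while pseudogenes gave 17 of 4843. Such genes are short and often lie beside coding genes, so a region over one can belong to its neighbour.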

How the data were processed

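Peak lists of 30 wild-type ChIP-seq libraries, 3 for each of 10 features, and 11 lists for the whole series were used. Mutant, input and control libraries were not used here, nor were the wild-type libraries labelled H3K27me3 and MH-seq. The submitters' processing notes name fastp, Bowtie2 2.3.3, MACS2 2.2.5 and deepTools, with TAIR10 as the genome. The library lists deposited by the authors hold positions, a score, −log10 p, −log10 q and a fold (the ratio of enrichment that MACS2 reports). No label or file header says which control this ratio is taken over. The deposited score equals 10 times −log10 q, or −log10 p for E2FA, within 1 for 100% of peaks. E2FA peaks reach a p-value of 0.01 and those of the other features a q-value of 0.05, so E2FA lists are the more lenient. Libraries held 1395 to 27063 peaks. Peak lists give no read totals, so depth is unknown and no limit that needs it was computed.

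The series lists hold positions only. For Ser5P and Ser2P they match the merged peaks found in at least 2 libraries at 12247 of 12251 and 10169 of 10172 regions. Overlap means at least 1 bp. Members and gene lists were chosen with earlier results of these data known. Regions are not replicates, so features were compared over 3 libraries by exact permutation tests, paired by library because both classes are read from the same library. The labels call replicates biological. Gene bounds came from the RefSeq table of TAIR10.1 and are not printed. To check that the coordinates match, H3K4me3 summits were located, and 96.8% lay in genes, against 67.8% to 69.9% after shifts. Genes were given a direction where all 3 libraries placed the top summit below 0.4, or all above 0.6, of gene length. Gene distances therefore rest on that table.

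Regions were named by rule: the 10 best by Ser5P score rank, the 3 longest and the 3 highest in total Pol II fold among members with Ser5P in all 3 libraries and Ser2P in none, the 3 best by BTE1 rank, and up to 2 per gene list. No genome or sequence table was used, so no sequences are shown and the planned motif search was not run. Alternatives covered Ser2P and Ser5P support, overlap, peak score, strata of length and rank, genes and leaving out replicates. A further 3 were added after the data were seen: 200 bp around the Ser5P summit, regions near oriented 5′ ends, and members without the chromosome 3 stretch. Python 3.11.15, numpy 2.4.6, pandas 2.3.3, scipy 1.17.1 and matplotlib 3.10.9 were used, and the overlap, distance, orientation and permutation steps were tested on simulated data.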

Additional observations from a re-analysis of the deposited data

How the results depend on the processing

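Of 128 alternative values for the shares, 14 turned the direction, and of 36 for the median folds, 3 did. The differences of total Pol II, H3K4me1, WDR5A-HA and BTE1 kept their direction in all alternatives run. In percentage points, member minus other, H3K4me2 turned with peaks over at least 0.5 of the region (0.278), peaks above the median score (0.741), length strata (9.02), regions in genes (10.2) and 200 bp around the summit (0.845). H3K4me3 turned with 0.5 of the region (1.47), length strata (13.2), Ser5P rank strata (1.26), regions in genes (22.4) and 200 bp around the summit (3.43). H2A.Z turned with Ser5P in all 3 libraries (−1.44), a summit inside the region (−10.6) and near 5′ ends (−6.76), and E2FA with 0.5 of the region (1.24). The median H3K4me3 fold turned within length strata (0.51) and rank strata (0.057), and that of H2A.Z within length strata (−0.10). The cause was not tested.

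Leaving out each replicate number of Ser5P, Ser2P and the feature together, which also changes the members, gave −60.1 to −56.9 points for total Pol II, 17.6 to 22.5 for WDR5A-HA, 0.430 to 0.945 for BTE1 and −13.5 to −6.22 for E2FA. The number of members ranged from 2908 to 3262, and that of genes with Ser5P alone from 984 to 1158. With Ser5P in all 3 libraries 2279 members and 648 genes remained. Without the replicate block, which pairs the 2 classes of regions within a library, the difference is by construction the same (−63.8 points for total Pol II, 24.0 for WDR5A-HA). The unpaired exact permutation test, two-sided, gave p = 0.1, the smallest possible, for total Pol II, the 3 H3K4 marks and WDR5A-HA. It set 3 shares of members against 3 shares of the others from the same 3 libraries, so it ignores their pairing.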
